A study of Mus musculus with 12 samples.

Results

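The genes described here are the 5 NF-kB subunit genes Nfkb1, Nfkb2, Rel, Rela and Relb and 5 genes that NF-kB switches on and that act back on it, Nfkbia, Nfkbiz, Tnfaip3, Birc3 and Bcl3. They were taken by symbol, not by their values, and are 10 of the 54232 genes in the count tables. All 10 passed the filter on low counts and are among the 16767 genes tested. RNA sequencing had been run on MMTV-NIC cells, a mouse breast cancer model in which the mammary-directed MMTV promoter drives an activated Neu (Erbb2) receptor together with Cre recombinase. The cells were AXL WT or AXL KO, where KO is loss of the receptor tyrosine kinase AXL, and each genotype was kept at 21% O2 (normoxia) or 1% O2 (hypoxia). Each of the 4 groups holds 3 libraries, so every AXL KO value below comes from 3 libraries of cells that carry the same Neu transgene as the AXL WT cells. The sample titles give these groups, and a separate genotype entry that contradicts the titles in 6 libraries was not followed. Axl itself was at 455 CPM (counts scaled to a common library size) or more in every AXL WT library and at 3.47 CPM or less in every AXL KO library, which matches the titles in all 12 libraries. The labels give no time in hypoxia, no number of KO clones and no origin of the replicates. A p-value here therefore covers no more than the spread among libraries of the same group, and that spread may be technical.

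NF-kB transcription factors are dimers of RelA, c-Rel, RelB, p50 (from Nfkb1) and p52 (from Nfkb2). In the canonical pathway the IKK kinase complex marks the inhibitor IkB-alpha (Nfkbia) for destruction and frees RelA and c-Rel dimers, while in the non-canonical pathway the kinase NIK leads to processing of the Nfkb2 product into p52, which pairs with RelB. The freed dimers switch on their own brakes, among them Nfkbia and the ubiquitin-editing enzyme A20 (Tnfaip3), so that a stimulus gives a pulse rather than a lasting response. In mammary epithelium the pathway is known for its part in gland growth during pregnancy and in inflammatory gene expression of tumour cells. RNA levels do not show whether a dimer is in the nucleus.

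Dimers bind kappaB sites in promoters, so sequence matches to such a site in front of the subunit and feedback genes are shown. RefSeq promoter sequences (GRCm38.p6) were at hand for 7 of the 10 genes and not for Nfkb1, Relb and Nfkbiz. In the 250 bases before the start site, searched on both strands, a kappaB consensus match was found in 4 of the 7, namely Nfkb2, Rel, Nfkbia and Tnfaip3. Overlapping matches were each counted. Of all 27025 genes with a promoter window of that length, 8.23% held a match in at least 1 window. A looser motif of 3 G, 5 free bases and 2 C was present in 7 of 7, against 48.7% of all genes with a window. A gene can have several windows, and Nfkb2 had 3. The stretches below are written 5′ to 3′ on the strand of the gene, with the match in capitals.
Nfkbia, chr12:55492657-55492686, minus strand: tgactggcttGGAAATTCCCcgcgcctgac
Tnfaip3 nearer site, chr10:19015411-19015432, minus strand: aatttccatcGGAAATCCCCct
Tnfaip3 farther site, chr10:19015516-19015545, minus strand: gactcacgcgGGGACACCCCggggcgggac
Rel, chr11:23771042-23771071, minus strand: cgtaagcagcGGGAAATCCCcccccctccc
Nfkb2, chr19:46304688-46304717, plus strand: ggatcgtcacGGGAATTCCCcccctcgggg
The Nfkbia match ended 20 bases and the nearer Tnfaip3 match 3 bases before the start site. Rela, Birc3 and Bcl3 held no consensus match in their windows, which says only that these letters are not there. A match is a description of the sequence and was not tested as a site.

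The libraries hold between 45297267 and 58775422 counts. Every level below is in CPM with TMM scaling, and a gene is said to have risen or fallen where edgeR's quasi-likelihood test gave a Benjamini-Hochberg adjusted p under 0.05 over all 16767 genes. Log2 differences are given with their standard error (SE). Spread was estimated per gene over all 12 libraries, so the AXL WT hypoxia group also enters the SE and p of comparisons without it. For Bcl3 in AXL KO, hypoxia against normoxia, the SE was 0.39 in this fit and 0.06 with those groups fitted alone. For Nfkb1 between genotypes in normoxia it was 0.28 and 0.07. With AXL WT hypoxia replicates 2 and 3 left out, 1 library stood for that group, so only the size of a difference is given. In bulk RNA, fewer cells of a type and less RNA per cell cannot be told apart. The 3 AXL WT hypoxia libraries were unlike each other: edgeR's common biological coefficient of variation, the spread beyond counting error, came to 0.4 there and to between 0.0585 and 0.0895 in each of the other groups. Chi-square per degree of freedom between 2 AXL WT hypoxia libraries was 391 for replicates 1 and 2, 222 for 1 and 3, and 116 for 2 and 3. Fits that left out replicates 2 and 3 thus kept the library least like the others by that measure. In that group Erbb2, the gene of the driving receptor, measured 2410, 131 and 360 CPM in replicates 1, 2 and 3, and the luminal keratin gene Krt8 measured 828, 323 and 418 CPM. Csf1r, a receptor gene of macrophages that is also on the leukocyte list, measured 5.41, 145 and 41.1 CPM in them, while the leukocyte-defining gene Ptprc never passed 5 counts in any library. The summed level of the 9 leukocyte markers ran from 15 to 152 CPM in AXL WT hypoxia and from 11.1 to 12.7 CPM in AXL WT normoxia. It was between 59.6 and 85.3 CPM for the KO cells in normoxia and between 49.0 and 55.6 CPM in hypoxia, with at least 7 of the 9 under 1 CPM in each group. The 7 fibroblast markers summed to between 57.5 and 85 CPM over the AXL WT libraries. In AXL KO they summed to between 167 and 181 CPM in normoxia and between 19.6 and 23.2 CPM in hypoxia, with at least 4 of the 7 under 1 CPM in each group and Thy1 at no more than 1 count in any library. Endothelial markers reached at most 17.9 CPM and adipocyte markers at most 41.8 CPM in sum. Of the 6 epithelial markers, Krt19 alone was under 1 CPM in every group. The part of these markers in the results was not tested.

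**Figure D1:**
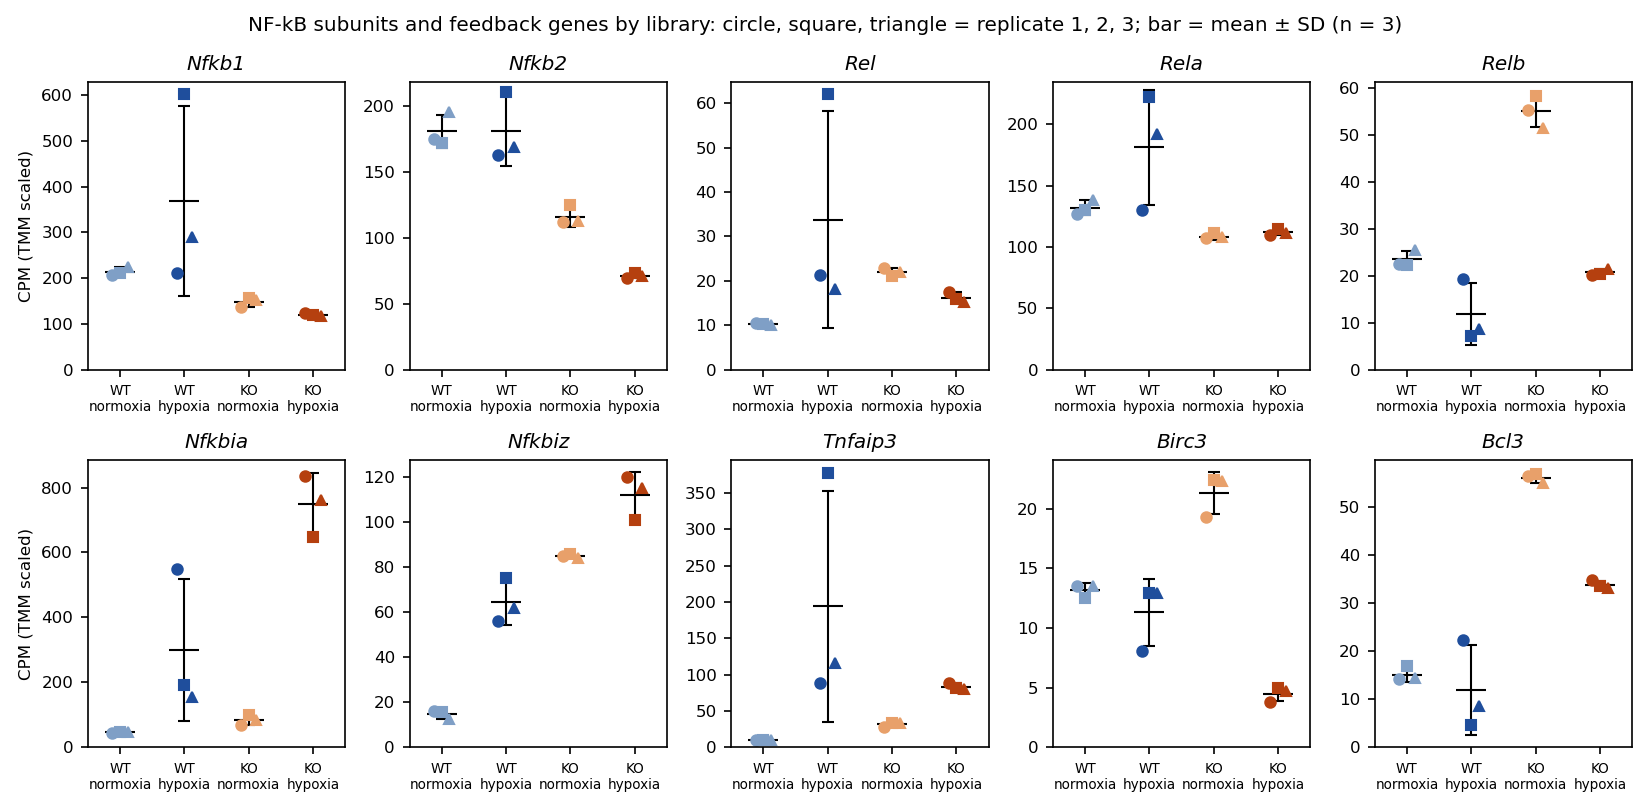
Level of each of the 10 genes in each library, in CPM, by group, with the marker shape giving the replicate. The AXL WT hypoxia libraries spread over up to 4.91-fold (Bcl3), while none of the 10 spread over more than 1.44-fold in any other group.

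Among the canonical subunits, Nfkb1 (chromosome 3, 135584655 to 135691547, GRCm38), whose product is processed to p50, measured 206, 211 and 224 CPM in AXL WT normoxia. Its AXL WT hypoxia libraries held 212, 603 and 290 CPM, its AXL KO normoxia libraries 136, 156 and 152 CPM, and its AXL KO hypoxia libraries 123, 119 and 118 CPM. Replicate 2 of AXL WT hypoxia stood far above all the others, and replicate 1 lay inside the AXL WT normoxia range. In hypoxia Nfkb1 was lower in AXL KO than in AXL WT by 3.07-fold (log2 difference -1.62 ± 0.28 SE, adjusted p = 0.000405), with no overlap between the groups. That difference was -1.07 (adjusted p = 1.28e-05) without AXL WT hypoxia replicate 2 and -1.89 (adjusted p = 2.66e-06) without replicate 1. In normoxia it was -0.53 ± 0.28 (95% interval -1.08 to 0.02, adjusted p = 0.121), although those libraries did not overlap either. Nfkb1 rose in hypoxia in AXL WT by 0.79 ± 0.28 (adjusted p = 0.0292), a call that was lost without replicate 2 (0.24, adjusted p = 0.0958) and without any 1 of the AXL WT normoxia libraries (adjusted p from 0.0531 to 0.0668). The gene Gm43430 overlaps Nfkb1 on the same strand, so the assignment of reads in the overlap is uncertain.

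Rela (chromosome 19, 5637483 to 5648130), the gene of the main activating subunit, was the steadiest of the 10, with group means over a range of 0.71 on the log2 scale. It measured 127, 130 and 138 CPM in AXL WT normoxia and 130, 222 and 192 CPM in AXL WT hypoxia. In AXL KO it stayed between 107 and 111 CPM in normoxia and between 110 and 115 CPM in hypoxia. The AXL KO libraries thus all lay below every AXL WT library. In hypoxia Rela was 1.62-fold lower in AXL KO (-0.70 ± 0.15, adjusted p = 0.00171), and the difference was -0.22 with AXL WT hypoxia replicates 2 and 3 left out. It was -0.88 (adjusted p = 5.64e-07) without replicate 1 and -0.53 (adjusted p = 0.0038) without replicate 2. In normoxia the difference was -0.28 ± 0.15 (95% interval -0.58 to 0.01, adjusted p = 0.126). The rise of Rela in hypoxia in AXL WT, 0.46 ± 0.15 (adjusted p = 0.0195), became 0.30 (adjusted p = 0.063) without replicate 2 and 0.42 (adjusted p = 0.0546) without replicate 3.

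Rel (chromosome 11, 23736847 to 23770970), which encodes c-Rel, best known from lymphocytes, was the lowest of the 5 subunits per length in AXL WT normoxia. Its levels there were 10.5, 10.3 and 9.97 CPM, against 22.9, 21.1 and 22.0 CPM in AXL KO normoxia. In hypoxia it measured 21.3, 62.0 and 18.1 CPM in AXL WT and 17.5, 15.9 and 15.2 CPM in AXL KO. Rel was therefore higher in AXL KO than in AXL WT in normoxia (1.10 ± 0.36, adjusted p = 0.0192) and lower in hypoxia (-1.06 ± 0.36, adjusted p = 0.0213), with no overlap in either. The hypoxia difference was -1.29 (adjusted p = 0.00306) without AXL WT hypoxia replicate 1 and -1.36 (adjusted p = 0.0041) without replicate 3. It shrank to -0.29 (adjusted p = 0.0396) without AXL WT replicate 2. It missed the threshold without AXL KO hypoxia replicate 2 (adjusted p = 0.059) or 3 (adjusted p = 0.0649). The normoxia difference missed it without AXL WT normoxia replicate 3 (adjusted p = 0.0511). In AXL WT Rel rose in hypoxia by 1.72 ± 0.36 (adjusted p = 0.00159), and by 0.95 (adjusted p = 2.24e-05) without replicate 2.

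Both subunits of the non-canonical dimer were steady among replicates outside AXL WT hypoxia but moved apart. Nfkb2 (chromosome 19, 46304737 to 46312090), the p52 precursor gene, measured 175, 172 and 196 CPM in AXL WT normoxia and 163, 211 and 169 CPM in AXL WT hypoxia. The AXL KO libraries gave 112, 125 and 113 CPM in normoxia and 69.7, 73.7 and 71.1 CPM in hypoxia. Every AXL KO library lay below every AXL WT library at both oxygen levels. The Nfkb2 difference was -0.64 ± 0.11 in normoxia (adjusted p = 0.000298). It reached -1.34 ± 0.11, or 2.53-fold, in hypoxia (adjusted p = 1.01e-06). Hypoxia lowered Nfkb2 in AXL KO by 1.63-fold (-0.70 ± 0.11, adjusted p = 0.000195). In AXL WT its change was within -0.21 and 0.21 (95% interval, adjusted p = 1), and its sign depended on the settings.

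Relb (chromosome 7, 19606217 to 19629438), which encodes the partner of p52, went the other way between genotypes. It measured 22.6, 22.4 and 25.5 CPM in AXL WT normoxia and 55.4, 58.4 and 51.6 CPM in AXL KO normoxia, a 2.35-fold difference (1.23 ± 0.28, adjusted p = 0.00226). In hypoxia the levels were 19.3, 7.22 and 8.77 CPM in AXL WT and 20.2, 20.5 and 21.5 CPM in AXL KO. AXL WT hypoxia replicate 1 was thus close to the AXL KO hypoxia libraries, and replicates 2 and 3 were far below them. The hypoxia difference, 0.82 ± 0.28 (adjusted p = 0.0229), was 1.38 (adjusted p = 2.64e-07) without replicate 1 and 0.10 with replicates 2 and 3 left out. The same call was lost when any 1 of 4 libraries was left out: AXL WT hypoxia replicate 2 (0.56, adjusted p = 0.064) or 3 (0.64, adjusted p = 0.0902), and AXL KO hypoxia replicate 2 (adjusted p = 0.0501) or 3 (adjusted p = 0.0592). It was lost with library sizes unscaled as well (0.65, adjusted p = 0.0579). Relb fell in hypoxia in both genotypes, with a log2 change of -1.0 ± 0.28 in AXL WT (adjusted p = 0.00887) and -1.41 ± 0.28 in AXL KO (adjusted p = 0.0011). With AXL WT hypoxia replicates 2 and 3 left out, the fall in AXL WT was -0.27, and without replicate 1 it was -1.55 (adjusted p = 1.64e-07).

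Of the feedback genes, Nfkbia (chromosome 12, 55489410 to 55492647), which encodes IkB-alpha, had the widest range of group means, 4.0 on the log2 scale. Its levels were 45.0, 48.3 and 46.1 CPM in AXL WT normoxia, 67.9, 97.8 and 82.7 CPM in AXL KO normoxia, 550, 192 and 156 CPM in AXL WT hypoxia, and 837, 647 and 762 CPM in AXL KO hypoxia. No 2 groups overlapped, and replicate 1 of AXL WT hypoxia came closest to the AXL KO hypoxia libraries. Nfkbia rose in hypoxia 6.44-fold in AXL WT (2.69 ± 0.39, adjusted p = 0.000108) and 9.04-fold in AXL KO (3.18 ± 0.40, adjusted p = 4.07e-05). In AXL WT the rise was 3.73-fold without replicate 1 (1.90 ± 0.14, adjusted p = 1.74e-07) and 12-fold with replicates 2 and 3 left out. The responses of the genotypes differed by 0.49 ± 0.52 (95% interval -0.52 to 1.5, adjusted p = 0.517). In hypoxia Nfkbia was 2.5-fold higher in AXL KO (1.32 ± 0.37, adjusted p = 0.00813), and the value was 2.12 without AXL WT replicate 1 and 0.44 with replicates 2 and 3 left out. In normoxia the genotype difference was 0.83 ± 0.37 (adjusted p = 0.0692).

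Nfkbiz (chromosome 16, 55811375 to 55838899) encodes IkB-zeta, a nuclear co-activator that opens a second set of NF-kB target genes. It measured 16.2, 15.4 and 12.3 CPM in AXL WT normoxia and 84.8, 85.5 and 83.9 CPM in AXL KO normoxia, a 5.79-fold difference (2.53 ± 0.14, adjusted p = 3.08e-08). In hypoxia it measured 55.8, 75.2 and 61.9 CPM in AXL WT and 120, 101 and 115 CPM in AXL KO, a 1.74-fold difference (0.80 ± 0.13, adjusted p = 0.000258). AXL KO normoxia already exceeded AXL WT hypoxia in every library. In AXL WT Nfkbiz rose 4.39-fold in hypoxia (2.14 ± 0.14, adjusted p = 2.97e-07). In AXL KO it rose 1.32-fold (0.40 ± 0.13, adjusted p = 0.0201), a call lost without any 1 of the AXL KO normoxia libraries or AXL KO hypoxia replicate 1 or 3 (adjusted p from 0.054 to 0.069).

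Bcl3 (chromosome 7, 19808462 to 19822770), whose product is a nuclear IkB protein that binds p50 and p52 dimers, was high in AXL KO at both oxygen levels. Its libraries gave 14.1, 16.8 and 14.4 CPM in AXL WT normoxia and 56.5, 56.8 and 54.9 CPM in AXL KO normoxia. In hypoxia they gave 22.4, 4.57 and 8.58 CPM in AXL WT and 34.7, 33.6 and 33.1 CPM in AXL KO. The AXL WT hypoxia libraries lay on both sides of the AXL WT normoxia range. Bcl3 was 3.72-fold higher in AXL KO in normoxia (1.89 ± 0.41, adjusted p = 0.00158) and 2.85-fold higher in hypoxia (1.51 ± 0.40, adjusted p = 0.00633). The hypoxia value was 2.37 without AXL WT replicate 1 and 0.58 with replicates 2 and 3 left out. The change of Bcl3 in hypoxia was -0.35 ± 0.40 in AXL WT (95% interval -1.13 to 0.43, adjusted p = 0.475) and -0.73 ± 0.39 in AXL KO (adjusted p = 0.132). In AXL WT it was -1.19 (adjusted p = 0.000125) without replicate 1, and 0.59 with replicates 2 and 3 left out, where 1 library stood for the group.

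Tnfaip3 (chromosome 10, 19000910 to 19015657), which encodes A20, rose in hypoxia in both genotypes. It measured 10.3, 9.90 and 9.67 CPM in AXL WT normoxia and 88.9, 377 and 116 CPM in AXL WT hypoxia. The AXL KO libraries gave 27.3, 33.1 and 33.5 CPM in normoxia and 88.9, 80.9 and 80.4 CPM in hypoxia. The groups in hypoxia met at 88.9 CPM, so Tnfaip3 was the only 1 of the 10 whose AXL WT and AXL KO hypoxia libraries overlapped. The rise in hypoxia was 19.5-fold in AXL WT (4.28 ± 0.46, adjusted p = 1.12e-05) and 2.67-fold in AXL KO (1.41 ± 0.41, adjusted p = 0.0107). In AXL WT the rise was 10.3-fold without replicate 2 (3.37 ± 0.13, adjusted p = 1.35e-08) and 9.0-fold with replicates 2 and 3 left out. In normoxia Tnfaip3 was 3.14-fold higher in AXL KO (1.65 ± 0.42, adjusted p = 0.00456). In hypoxia it was lower in AXL KO (-1.22 ± 0.40, adjusted p = 0.0199). The difference was -1.55 (adjusted p = 0.000594) without AXL WT hypoxia replicate 1 and -1.48 (adjusted p = 0.0105) without replicate 3. Without replicate 2 it was only -0.30 (adjusted p = 0.0513). That call was lost too without AXL KO hypoxia replicate 2 (adjusted p = 0.0576) or 3 (adjusted p = 0.058).

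Birc3 (chromosome 9, 7848699 to 7873186), which encodes the ubiquitin ligase cIAP2, was the member that hypoxia lowered most in AXL KO. It measured 13.5, 12.5 and 13.5 CPM in the AXL WT normoxia libraries, and 8.06, 12.9 and 12.9 CPM in those of AXL WT hypoxia. The AXL KO libraries gave 19.3, 22.4 and 22.3 CPM at 21% O2 and 3.78, 4.99 and 4.73 CPM at 1% O2. AXL KO normoxia was above and AXL KO hypoxia below every AXL WT library. Birc3 was higher in AXL KO by 0.70 ± 0.18 in normoxia (adjusted p = 0.00578), whereas in hypoxia the difference was -1.33 ± 0.19 (adjusted p = 8.48e-05). Hypoxia lowered Birc3 4.73-fold in AXL KO (-2.24 ± 0.19, adjusted p = 2.8e-06), while in AXL WT the change was -0.22 ± 0.18 (95% interval -0.58 to 0.14, adjusted p = 0.313). With AXL WT hypoxia replicates 2 and 3 left out, it was -0.70 in AXL WT, and the genotype difference in hypoxia was -0.84. That genotype difference was -1.51 (adjusted p = 4.26e-07) without replicate 1 and -1.22 (adjusted p = 0.000187) without replicate 2.

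**Figure D2:**
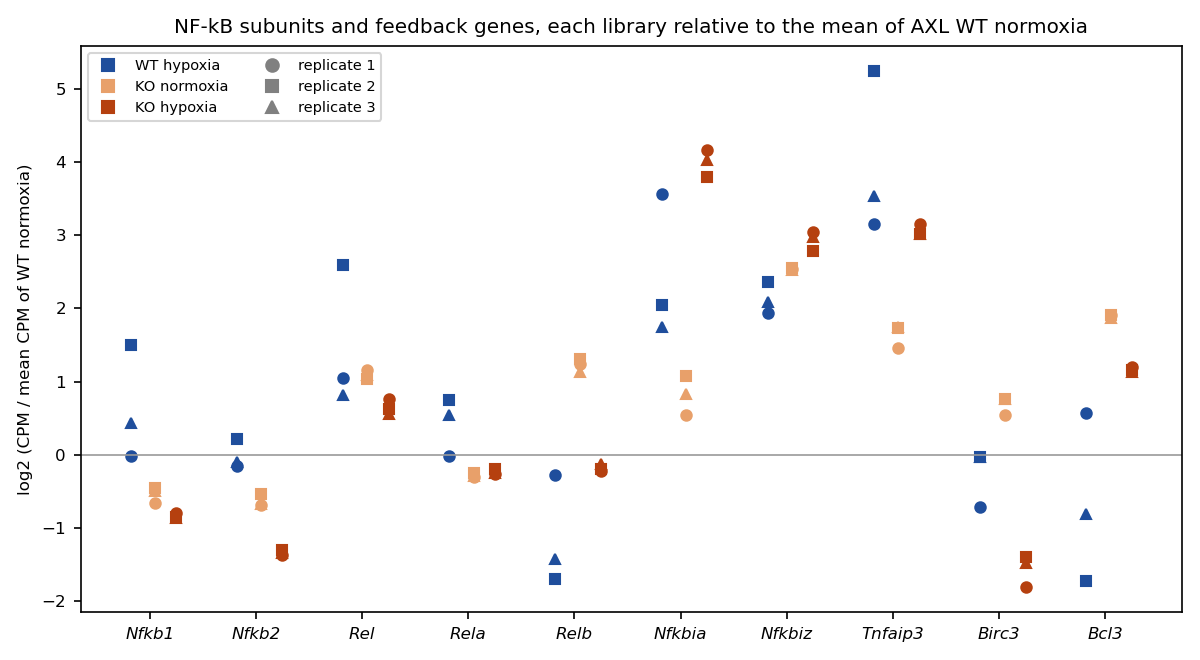
Each library of 3 groups as the log2 ratio of its CPM to the mean CPM of AXL WT normoxia (line at 0), for the 10 genes, with the colour giving the group and the marker shape the replicate. In AXL KO normoxia 7 of the 10 genes are above 0 in every library and Nfkb1, Nfkb2 and Rela are below it, and the AXL WT hypoxia squares (replicate 2) lie at the top for Nfkb1, Rel and Tnfaip3 and at the bottom for Relb and Bcl3.

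In AXL KO against AXL WT in hypoxia the 10 genes went both ways. The subunit genes Nfkb1, Nfkb2, Rel and Rela and the ubiquitin-system genes Tnfaip3 and Birc3 were lower in AXL KO. Relb, Nfkbia, Nfkbiz and Bcl3 were higher. All 10 were called, against 63.0% of all genes tested. The 4 that were higher compare with 29.9% and the 6 that were lower with 33.0% of all genes. At least 2-fold differences were called for 7 of the 10, against 37.8% of all genes, and 9 had groups without overlap, against 62.6%. The median log2 difference was -0.88 over the 10 and -0.04 over all genes tested. With the 2 groups fitted alone, 5 of the 10 were called, without Rel, Relb, Nfkbia, Tnfaip3 and Bcl3. Calls over all genes then went from 10557 to 7696. With AXL WT hypoxia replicates 2 and 3 left out, Relb stood at 0.10 and Tnfaip3 at -0.10.

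The genotype comparison in normoxia gave mostly higher calls. Nfkbiz, Bcl3, Tnfaip3 and Birc3 were higher in AXL KO together with Rel and Relb, and Nfkb2 was lower. These 7 calls stand beside 59.7% of all genes tested, with 6 higher (29.7% of all genes) and 1 lower (30.0%). Groups did not overlap for 10 of 10 genes, against 79.7% of all genes. Calls of at least 2-fold were made for 5, against 35.3% of all genes. The median log2 difference was 0.97 over the 10 genes and -0.03 over all. With the 2 normoxia groups fitted alone, 10 of the 10 were called, while calls over all genes went from 10009 to 12610. Among the 10 were then Nfkb1 (-0.54, adjusted p = 7.5e-06), Rela (-0.29, adjusted p = 0.00044) and Nfkbia (0.82, adjusted p = 4.11e-05). With library sizes unscaled, the share of called genes that were higher moved from 49.7% to 35.8% and the median of all genes to -0.28. Then 5 of the 10 were called higher and 3 lower, with Nfkb1 (-0.78, adjusted p = 0.0204) and Rela (-0.54, adjusted p = 0.00818) newly lower and Birc3 (0.44, adjusted p = 0.0655) not called.

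Hypoxia in AXL WT raised Nfkb1, Rel, Rela, Nfkbia, Nfkbiz and Tnfaip3 and lowered Relb. These 7 calls compare with 59.8% of all genes tested, 6 higher (29.2%) and 1 lower (30.7%). Libraries did not overlap for 5 of the 10, against 61.4% of all genes, and 4 were called at 2-fold or more, against 35.3%. The median log2 change was 0.62 over the 10 and -0.02 over all genes. With these 2 groups fitted alone, 4 of the 10 were called, all higher, while calls over all genes went from 10035 to 7600. With library sizes unscaled, the share of called genes that were higher moved from 48.8% to 33.2%, and the median of all genes moved to -0.32. Then 4 of the 10 were called higher and 3 lower. Nfkb1 (0.47, adjusted p = 0.134) and Rela (0.16, adjusted p = 0.356) were no longer called, and Nfkb2 (-0.30, adjusted p = 0.0174) and Birc3 (-0.51, adjusted p = 0.0357) were newly lower.

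Hypoxia in AXL KO raised Nfkbia, Nfkbiz and Tnfaip3 and lowered Nfkb2, Relb and Birc3. That is 6 of 10 called, against 58.0% of all genes tested, with 3 higher (27.3% of all genes) and 3 lower (30.6%). The groups were apart for 9 of the 10, against 76.0% of all genes, and 4 were called at 2-fold or more, against 32.0%. Nfkb1 (-0.31, adjusted p = 0.368), Rel (-0.44, adjusted p = 0.308) and Bcl3 missed the threshold, as did Rela (0.05, adjusted p = 0.817), whose sign turned to -0.16 with library sizes unscaled. With library sizes unscaled, the share of called genes that were higher moved from 47.1% to 36.0%, and Nfkbiz (0.20, adjusted p = 0.22) was not called, which left 2 of the 10 higher and 3 lower. Nfkb1, Rel and Bcl3 were called lower when the AXL KO groups were fitted alone, where calls over all genes went from 9719 to 11786. The median log2 change was -0.37 over the 10 and -0.03 over all genes. Each hypoxia comparison shares a group with each genotype comparison, so the values of these are given side by side only.

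**Figure D3:**
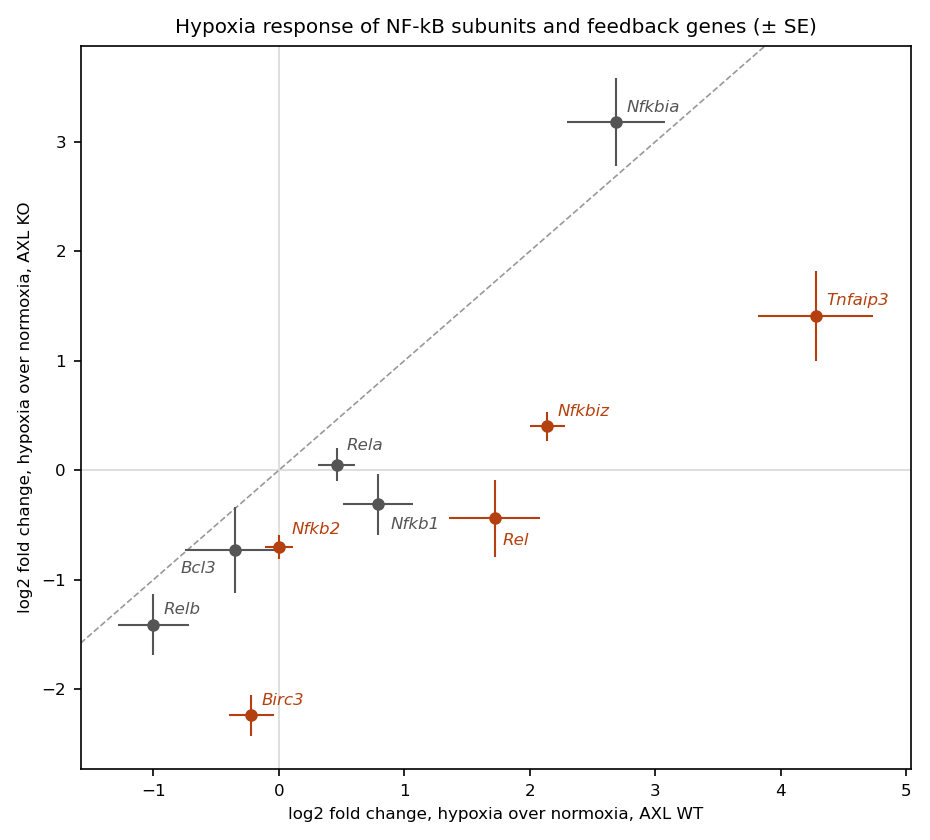
Log2 fold change in hypoxia over normoxia in AXL KO (vertical axis) against that in AXL WT (horizontal axis) for the 10 genes, with bars of 1 SE and a dashed line of equal response. The 5 genes whose responses differed by the interaction test, in orange, lie below the line, and Nfkbia lies above it at 2.69 in AXL WT and 3.18 in AXL KO.

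The hypoxia responses of the genotypes were compared directly by the interaction, the log2 response in AXL KO minus that in AXL WT. It was called for 5 of the 10 genes, against 28.8% of all genes tested, and was negative in those 5, against 15.3% of all genes. Tnfaip3 differed by -2.87 ± 0.58 (adjusted p = 0.00385), Rel by -2.16 ± 0.51 (adjusted p = 0.00834) and Birc3 by -2.02 ± 0.26 (adjusted p = 0.000225). Without AXL WT hypoxia replicate 2 these were -1.95 for Tnfaip3 (adjusted p = 1.7e-05), -1.39 for Rel (adjusted p = 6.01e-05) and -1.92 for Birc3 (adjusted p = 0.000223). With all libraries, the 3 genes were higher in AXL KO than in AXL WT in normoxia and lower in hypoxia. Nfkbiz differed by -1.73 ± 0.19 (adjusted p = 7.01e-05) and Nfkb2 by -0.70 ± 0.15 (adjusted p = 0.00586). For Nfkb1 the value was -1.09 ± 0.39 (adjusted p = 0.0573), for Rela -0.41 ± 0.21 (adjusted p = 0.167), for Relb -0.41 ± 0.39 (95% interval -1.18 to 0.35, adjusted p = 0.464) and for Bcl3 -0.38 ± 0.56 (95% interval -1.48 to 0.71, adjusted p = 0.651). AXL WT hypoxia replicate 1 decided several of these. Without it 8 of the 10 were called, while calls over all genes went from 4830 to 8417. Nfkb1 was then at -1.36 (adjusted p = 0.00128), Rela at -0.60 (adjusted p = 0.000624) and Nfkbia at 1.28 (adjusted p = 0.000178). Nfkb1 was called also without replicate 2 (-0.54, adjusted p = 0.0227) or 3 (-1.24, adjusted p = 0.0476). With replicates 2 and 3 left out, Tnfaip3 stood at -1.75, Bcl3 at -1.31, Relb at -1.14, Rela at 0.05 and Nfkbia at -0.40.

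Within AXL WT hypoxia the 10 genes fell into patterns by library. Nfkbia, Relb and Bcl3 were highest in replicate 1, by 2.87, 2.68 and 4.91-fold over replicate 2. Nfkb1, Nfkb2, Rel, Rela, Nfkbiz and Tnfaip3 were highest in replicate 2, from 1.30-fold (Nfkb2) to 4.24-fold (Tnfaip3) over replicate 1. Birc3 was lowest in replicate 1 and equal in the other two. The highest library was at least 2-fold the lowest for 6 of the 10 genes, against 39.4% of all genes tested, while this held for 0 of 10 in each other group, against 9.69% of all genes for AXL WT at 21% O2, 10.7% for AXL KO at 21% O2 and 12.2% for AXL KO at 1% O2. Erbb2 and Krt8 were highest in replicate 1 as well, and Csf1r was highest in replicate 2.

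Levels of different genes were compared as CPM per kilobase of exon. In AXL WT normoxia the order was led by subunits, with Nfkb2 at 55.0 ± 3.84 (SD, n = 3), Rela at 48.5 ± 2.18 and Nfkbia at 28.9 ± 1.06, followed by Nfkb1 at 17.7 ± 0.771. Bcl3 (6.09 ± 0.592) overlapped Relb (6.05 ± 0.441), Nfkbiz (2.92 ± 0.406) overlapped Birc3 (2.63 ± 0.11), and Tnfaip3 (1.38 ± 0.0447) overlapped Rel (1.38 ± 0.0365). In AXL KO normoxia Nfkbia led at 51.4 ± 9.29, ahead of Rela at 39.9 ± 0.798 and Nfkb2 at 35.4 ± 2.23, and only Tnfaip3 and Birc3 overlapped as neighbours. In AXL KO hypoxia Nfkbia stood at 465 ± 59.6, with Rela next at 41.1 ± 0.973 and Birc3 last at 0.899 ± 0.127. Nfkbiz (22.3 ± 1.98) and Nfkb2 (21.7 ± 0.616) were the only neighbours there that overlapped. In AXL WT hypoxia Nfkbia led at 186 ± 135, and the libraries of 7 of the 9 neighbouring pairs overlapped, from Rela (66.7 ± 17.2) downwards, with the exception of Nfkbiz (12.8 ± 1.98) over Bcl3 (4.79 ± 3.79).

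The genes most like Nfkb2 and Nfkbia were found by Pearson's r of log2 CPM over the 12 libraries among 9238 genes of mean CPM 10 or more. For Nfkb2 they were Wdr1 (r = 0.996), Zfp68 (0.991) and Eif4a3 (0.988). For Nfkbia they were Spata6 (r = 0.993), Ss18l1 (0.992) and Adcy6 (0.991). The libraries fall into 4 groups, so these values describe the group pattern and carry no test.

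**Figure D4:**
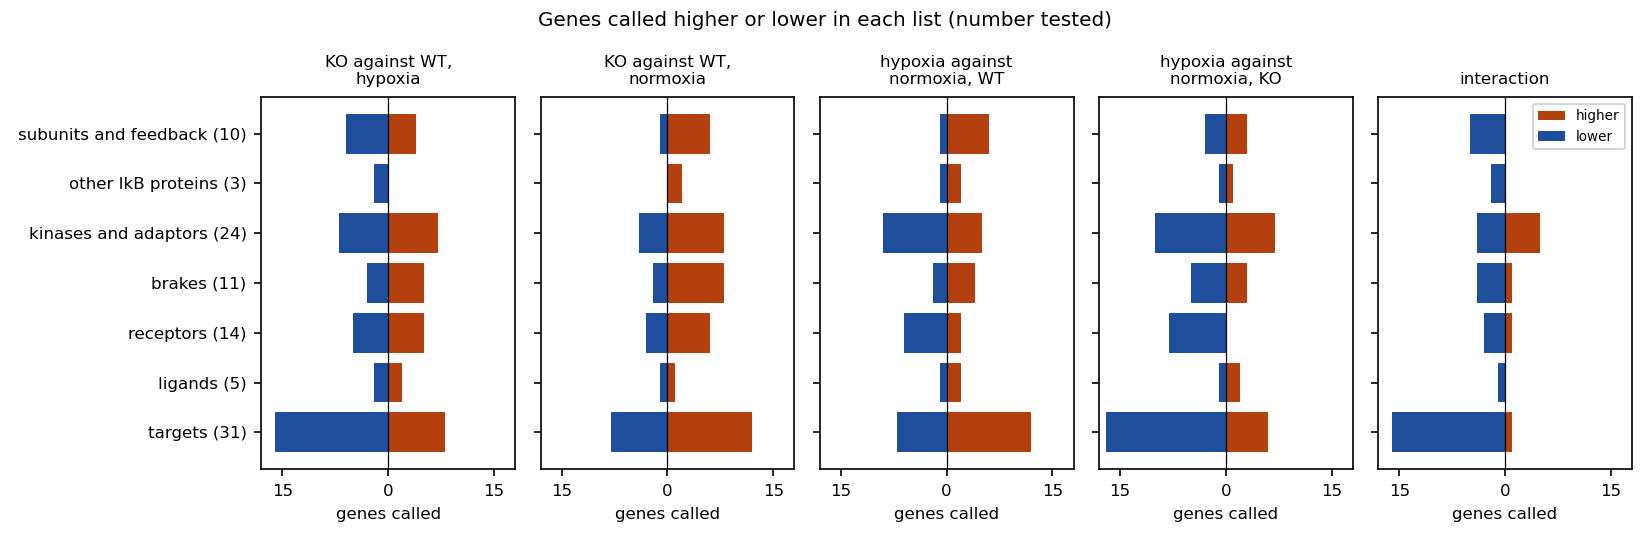
Number of genes called higher (right of 0) or lower (left of 0) in each of 5 comparisons, for the 10 genes and for 6 lists of other NF-kB pathway genes, with the number tested in parentheses. Among the 31 target genes, 16 are lower in AXL KO in hypoxia and 8 higher, and 16 are lower in the interaction and 1 higher.

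The other genes of the pathway were read from fixed lists. Of the other 3 IkB genes, 2 were lower in AXL KO in hypoxia (median -0.45) and 2 higher in normoxia (median 1.51). The shares and medians of all genes tested are those given for each comparison above. Nfkbie, the gene of IkB-epsilon, measured 14.6, 16.3 and 15.4 CPM in AXL WT normoxia, 38.5, 46.6 and 46.6 CPM in AXL KO normoxia, 4.90, 6.87 and 8.06 CPM in AXL WT hypoxia. Its AXL KO hypoxia libraries gave 4.27, 5.71 and 4.38 CPM. Nfkbie thus fell in hypoxia in both genotypes, with a log2 change of -1.22 ± 0.18 in AXL WT (adjusted p = 0.000141) and -3.20 ± 0.20 in AXL KO (adjusted p = 2.84e-07), opposite in direction to Nfkbia. Nfkbid, another nuclear IkB gene, was 3.31-fold higher in AXL KO in normoxia (adjusted p = 5.25e-05), at a low level of 2.06 against 0.621 CPM.

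Among 24 kinase and adaptor genes, 7 were higher and 7 lower in AXL KO in hypoxia, with a median of 0.14, and 8 were higher and 4 lower in normoxia, with a median of 0.06. Traf2, a signalling adaptor of TNF receptors that recruits cIAP proteins, rose in hypoxia 3.54-fold in AXL WT and 1.73-fold in AXL KO, and was 2.29-fold lower in AXL KO in hypoxia (-1.20 ± 0.12, adjusted p = 5.36e-06). Traf6, the adaptor of interleukin-1 and Toll-like receptors, rose more in AXL KO (2.02 ± 0.13) than in AXL WT (1.24 ± 0.13), an interaction of 0.78 ± 0.18 (adjusted p = 0.00825). Map3k7, the gene of the kinase TAK1, was lower in AXL KO at both oxygen levels, with differences of -1.18 ± 0.09 at 21% O2 (adjusted p = 3.37e-07) and -0.63 ± 0.09 at 1% O2 (adjusted p = 6.23e-05), while Tab1, the gene of its partner, was higher at both.

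Of 11 brake genes, 8 were higher and 2 lower in AXL KO in normoxia, with a median of 0.43, and 5 were higher and 3 lower in hypoxia, with a median of 0.20. Zc3h12a, which encodes the RNase Regnase-1, behaved like Rel, Tnfaip3 and Birc3 in that it was higher in AXL KO in normoxia (1.94 ± 0.18, adjusted p = 1.76e-06) and lower in hypoxia (-0.98 ± 0.17, adjusted p = 0.000399), with an interaction of -2.92 ± 0.25 (adjusted p = 1.4e-05). Tnip3, a gene of the A20-binding ABIN family, measured 16.4, 26.4 and 22.1 CPM in AXL KO normoxia and no more than 2.81 CPM in any other library. Its level in AXL KO fell 31.8-fold in hypoxia (-4.99 ± 0.33, adjusted p = 4.5e-07). Pdlim2, a ubiquitin ligase gene for nuclear RelA, was 4.42-fold higher in AXL KO in normoxia and 3.21-fold higher in hypoxia (adjusted p = 1.84e-05).

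Among 14 receptor genes, 5 were higher and 5 lower in AXL KO in hypoxia, and 8 fell and 0 rose in hypoxia in AXL KO, with medians of 0.25 and -0.86. Ltbr, the lymphotoxin beta receptor gene that feeds the non-canonical pathway, was higher in AXL KO by 0.91 ± 0.10 in hypoxia (adjusted p = 1.34e-05) and 0.64 ± 0.10 in normoxia (adjusted p = 0.000168). Tnfrsf12a, the TWEAK receptor gene, went the other way and was 3.69-fold lower in hypoxia (adjusted p = 1.53e-06) and 1.78-fold lower in normoxia (adjusted p = 0.00066). Tlr2 measured 49.8, 420 and 193 CPM in AXL WT hypoxia, against 15.5 CPM or less in AXL KO hypoxia. Its replicate order was that of Csf1r and also of Nfkb1, Nfkb2, Rela, Nfkbiz and Tnfaip3, and not that of Nfkbia.

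Ligand genes were mostly silent. Of 11, 6 did not pass the filter, with at most 2 counts of Ltb, Tnfsf11, Tnfsf14, Cd40lg and Il1b in any library and at most 62 counts of Tnf. Tnfsf12, the gene of TWEAK, held between 158 and 492 counts in each AXL WT library and between 0 and 2 in each AXL KO library. Il33, an alarmin of the interleukin-1 family, did the reverse. It measured 433, 572 and 629 CPM in AXL KO normoxia and 55.1, 76.1 and 68.7 CPM in AXL KO hypoxia, against at most 1.27 CPM in AXL WT. Lta, the lymphotoxin alpha gene, rose in hypoxia in AXL KO from 0.862 to 1.30 CPM up to 7.68 to 8.54 CPM (2.95 ± 0.69, adjusted p = 0.00337). In AXL WT hypoxia it measured 4.77, 0.375 and 0.685 CPM, highest in replicate 1 as Nfkbia was. Il1a, the gene of interleukin-1 alpha, measured 0.265, 3.45 and 0.623 CPM there, highest in replicate 2 as Tnfaip3 was. Its level was at most 0.106 CPM in every library of the other groups.

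The target list held 34 genes, of which 31 were tested. In AXL KO 16 were lower and 8 higher in hypoxia (median -1.17), and 8 were lower and 12 higher in normoxia (median 0.20). Hypoxia lowered 17 and raised 6 of them in AXL KO (median -1.23), and raised 12 and lowered 7 in AXL WT (median 0.04). Ptgs2, the gene of the prostaglandin synthase COX-2, measured 9720, 26400 and 18500 CPM in the AXL WT libraries of hypoxia. The AXL KO libraries held 190, 174 and 198 CPM, a 97.2-fold difference (-6.60 ± 0.37, adjusted p = 3.93e-08). Cxcl5, a neutrophil chemokine gene, was 8.24-fold higher in AXL KO in normoxia and 24.3-fold lower in hypoxia, the interaction being -7.65 ± 0.31 (adjusted p = 3.43e-07). Ier3, an early response gene, rose in both genotypes, by 3.42 ± 0.12 in AXL WT and 2.95 ± 0.11 in AXL KO. Vcam1, an adhesion molecule gene, measured 40.6, 57.2 and 49.1 CPM in AXL KO normoxia and at most 1.99 CPM in every other library. A kappaB consensus match was found in the promoter windows of 13 of the 24 target genes that had one in the table, against 8.23% of all genes with a window.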

How the data were processed

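Gene counts of 12 RNA-seq libraries were deposited by the authors as raw, unnormalized read counts per gene, with a column of other values, exon length. Per the file headers, the counts came from featureCounts 1.6.0 with strand setting 2 and Ensembl release 93. The submitters' processing notes list FastQC 0.11.5, STAR 2.5.1b, GRCm38, featureCounts 1.4.6 and DESeq2 1.12.3, so the counter's version differs between the sources. Genes were matched to GENCODE M21 by identifier, and 54079 of 54232 were named. One fit was made over all 12 libraries with edgeR 4.0.16 (R 4.3.3, TMM scaling, filterByExpr, 4 group means, robust quasi-likelihood test, Benjamini-Hochberg adjustment, 8 residual degrees of freedom). It was tested on simulated data in which all groups had the same spread. That test therefore does not cover the wider spread of AXL WT hypoxia. CPM used the same scaling. DESeq2 1.42.0, limma 3.58.1 and other settings were alternatives. The genes and lists were chosen with earlier results of these data known. Of each pathway list, up to 4 genes with the smallest adjusted p in AXL KO against WT in hypoxia and up to 2 more from the hypoxia comparisons could be named. Ligands named for their lack of counts, and cell markers, fall outside this rule. No counting interval is given, since every level comes with its replicates.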

Additional observations from a re-analysis of the deposited data

Results flagged for a closer look

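The hypoxia response differed between genotypes by the interaction test of edgeR for 5 of the 10 genes, against 28.8% of all genes tested. It was each time lower in AXL KO, against 15.3% of all genes. The differences on the log2 scale were -2.87 for Tnfaip3, -2.16 for Rel, -2.02 for Birc3, -1.73 for Nfkbiz and -0.70 for Nfkb2. Without AXL WT hypoxia replicate 2 they were -1.95, -1.39, -1.92, -1.61 and -0.58 in the same order, and the adjusted p was 0.00278 or less for each. The responses themselves were 4.28 in AXL WT and 1.41 in AXL KO for Tnfaip3, 1.72 and -0.44 for Rel, -0.22 and -2.24 for Birc3, and 2.14 and 0.40 for Nfkbiz. Without AXL WT hypoxia replicate 1 the interaction was called for 8 of the 10, with 7 lower and 1 higher in AXL KO, and for 8417 genes in all. Groups of 3 libraries are too small for a check of single outlying libraries by their gap to the others.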

How the results depend on the processing

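Of 830 alternative values for single genes, 738 kept their direction and their side of the threshold, 44 lost the call, 31 gained one and 17 changed sign. With the compared groups fitted alone, 5 of the 10 genes were called between genotypes in hypoxia and 4 for hypoxia in AXL WT. Over all genes, these fits called 7696 and 7600. Leaving out 1 library at a time gave 3582 to 8417 genes and 5 to 8 of the 10 for the interaction, the highest without AXL WT hypoxia replicate 1. The fit with AXL WT hypoxia replicates 2 and 3 left out is among the 830 values, and its lone library was taken to vary like the other groups. Signs changed as follows. For hypoxia in AXL WT, Nfkb2 was 0.05 with RLE size factors and with DESeq2, 0.06 with a strict filter, 0.07 with the groups alone and -0.12 to 0.09 without single libraries. Bcl3 ran from -1.19 without replicate 1 to 0.05 without replicate 2, and was 0.59 with replicates 2 and 3 left out, where Rela was 0.00. For hypoxia in AXL KO, Rela was -0.16 with library size alone. For the interaction, Relb ran from -0.67 without AXL WT hypoxia replicate 2 to 0.15 without replicate 1, and Bcl3 from -0.78 to 0.47. With replicates 2 and 3 left out, Rela was 0.05 and Nfkbia -0.40. In that fit Relb was -1.14 and Bcl3 -1.31, without a change of sign. The cause was not tested. The looser motif was found in 7 promoters and the consensus in 4. With library size alone, the share of called genes that were higher was 39.2% against 47.5% (AXL KO in hypoxia), 35.8% against 49.7% (normoxia), 33.2% against 48.8% (hypoxia in AXL WT) and 36.0% against 47.1% (in AXL KO), with medians of all genes at -0.21, -0.28, -0.32 and -0.23. In the hypoxia comparison of genotypes, Relb was then not called (0.65, adjusted p = 0.0579). With no filter or limma-voom 8 of the 10 were called there. The labels do not say whether same-numbered libraries belong together, and 3 libraries per group cannot settle it. The deviations of same-numbered libraries correlated at 0.142 or less, over 0.1 in 2 of 18 pairs. With a replicate block the 5 comparisons called 10, 7, 7, 6 and 5 of the 10 genes. No call of the 10 genes changed under the block.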
